A study of Mus musculus with 6 samples.

Results

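The genome of proliferating C2C12 myoblasts was described on its own from the Hi-C correlation matrix of these cells. The matrix holds 5455 bins of 500 kb, of which 4930 lie on the 19 autosomes, and 4729 autosomal bins were used because their value on the diagonal was above 0.5. The diagonal took no value strictly between 0 and 1, so no bin lay near this threshold. The series also holds day 3 myotubes and AraC-treated day 7 myotubes, whose matrices were not used here. The myoblasts were C2C12 cells at passage 3, a line derived from injured thigh muscle of C3H mice, plated sub-confluent and harvested at day 0 after 72 h of proliferation in medium with 10% fetal bovine serum. They carried no engineered allele by the labels and received no AraC or differentiation medium. The labels of both biological replicates name the same matrix, which was taken to hold the 2 replicates combined, so each bin pair has a single value without replicate error, and no test was run. A cell line is a limited model of muscle precursor cells in tissue, and the matrix holds no transcript levels by which the cell type could be checked.

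Hi-C joins pieces of DNA that lie close together in the fixed nucleus and counts the joined pairs. Chromatin in many cell types falls into compartment A, which is gene-rich and open, and compartment B, which is gene-poor and often lies at the nuclear lamina or the nucleolus. Regions of the same compartment contact each other more often than regions of different compartments, also between chromosomes. Myoblasts are the dividing precursors that leave the cell cycle and fuse to form muscle fibres, under control of MyoD family transcription factors.

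Each value of the matrix is a correlation coefficient between the normalized contact profiles of a pair of bins, so it measures how alike the partners of these bins are and not how often they touch. Pairs on the same chromosome are called cis and pairs on different chromosomes trans. The first principal component of the cis values of a chromosome (PC1) gave each bin its compartment, A above 0 and B below 0. On each chromosome it was turned so that it rose with gene density, the count per bin of transcription start sites (TSS) of protein-coding genes.

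The chromatin was cut with HindIII, so contacts were read only at its recognition sites. For orientation, the site nearest the middle of each bin is shown for the strongest trans pair, the strongest trans pair within B and the lowest trans pair of the matrix, as 60 bases of the plus strand of GRCm38 (mm10) with the recognition site in capitals. The bins held between 102 (the chr 10 bin of the strongest pair) and 174 (the chr 19 bin of the lowest pair) such sites.
Strongest pair, chr2:32754330-32754389: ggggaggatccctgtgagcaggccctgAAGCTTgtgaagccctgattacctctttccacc
Strongest pair, chr10:80748436-80748495: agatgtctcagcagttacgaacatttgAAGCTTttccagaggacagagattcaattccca
Strongest B-B pair, chr6:3245965-3246024: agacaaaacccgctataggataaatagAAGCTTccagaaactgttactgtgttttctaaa
Strongest B-B pair, chr8:3249186-3249245: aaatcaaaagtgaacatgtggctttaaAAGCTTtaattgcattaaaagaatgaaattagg
Lowest pair, chr2:178748391-178748450: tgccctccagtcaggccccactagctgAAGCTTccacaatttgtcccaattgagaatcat
Lowest pair, chr19:4749895-4749954: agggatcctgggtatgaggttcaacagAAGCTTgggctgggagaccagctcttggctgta

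Of the 201 autosomal bins left out, 125 lay before the first bin with data of their chromosome and 76 lay elsewhere. The median repeat-masked share was 53.4% in the 76 bins and 31.5% in the bins used. The cis values averaged 0.0152 (SD 0.0544 over 622819 bin pairs) and the trans values 0.00526 (SD 0.0446 over 10556537 bin pairs), and 42.9% of the trans values were below 0. The matrix does not show the number of sequenced contacts behind a value, so the depth behind a single value cannot be read from it.

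Compartment A held 1810 of 4729 bins (38.3%, exact binomial 95% interval 36.9% to 39.7%), yet 12240 of the 20370 protein-coding genes with a TSS in a used bin (60.1%) lay in it. The intervals given for shares cover counting error only, and neighbouring bins are not independent. Chr 19, the shortest autosome, had the lowest share of A bins (34.2%), and chr 13 the highest (47.0%). A bins held 6.76 ± 6.55 TSS (SD over bins) and B bins 2.79 ± 4.22, and 8.78% of A bins and 33.9% of B bins had no protein-coding TSS. The direction of this difference was fixed when the sign of PC1 was set and is no finding. GC content, which the sign did not use, was 44.2% ± 3.40 in A bins and 40.5% ± 3.09 in B bins. HindIII sites were sparser in A, with 152 ± 22.0 sites per bin, than in B, with 165 ± 17.2.

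Across the 4729 bins, PC1 correlated with GC content (r = 0.530), with the number of TSS (r = 0.432), with the repeat-masked share (r = -0.320) and with the number of HindIII sites (r = -0.391). Bins share a chromosome and its base composition with their neighbours, so these coefficients are descriptions. The r with TSS ranged from 0.122 on chr 13 to 0.676 on chr 15. Of the bins without a TSS, 13.9% lay in A, against 75.0% of the 136 bins with 20 TSS or more, so the compartment followed gene density only in part. The B bins with most TSS, and the A bin without any, were picked with their values in view. On chr 7, 34 TSS of the β-globin cluster (Hbb-bs, Hbb-bt and relatives) and of olfactory receptor genes shared a bin at 103.5 to 104.0 Mb with a PC1 of -0.446. On chr 19, the 34 TSS of the bin at 8.5 to 9.0 Mb include Ahnak, Eef1g, a subunit of translation elongation factor 1, and Nxf1, which exports mRNA, and its PC1 was -0.274. The A bin without TSS that had the highest PC1 lay on chr 1 at 183.5 to 184.0 Mb (PC1 1.99).

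PC1 was computed within each chromosome and was not rescaled. Its SD ran from 0.601 on chr 18 to 1.42 on chr 11, so ranks across chromosomes rest partly on this spread. The bins with the highest PC1 formed 1 continuous block on chr 2, from 30.5 to 33.0 Mb. PC1 was 3.10 at 30.5 Mb (10 TSS, among them Ptges, which makes prostaglandin E2, and Prrx2, Tor1a and Tor1b), 3.06 at 31.0 Mb (Ass1, Fnbp1, Gpr107, Hmcn2 and Ncs1) and 3.03 at 31.5 Mb (9 TSS with the tyrosine kinase gene Abl1 and Nup214, a nuclear pore component). It was 3.02 at 32.0 Mb (14 TSS with Dnm1, Golga2 and Lcn2) and 3.08 at 32.5 Mb (21 TSS with Ak1, the endoglin gene Eng and Cdk9, the kinase of the elongation factor P-TEFb). The lowest PC1, -1.93, belonged to the bin at 34.0 to 34.5 Mb of chr 11 with Lcp2, an adaptor of T cell signalling, and Foxi1. In trans this bin averaged -0.0425 with A and 0.0483 with B bins, whereas the chr 2 bin at 178.5 Mb was further below with A (-0.0637, and 0.0460 with B). The other four of the 5 lowest bins lay near the distal end of chr 2, at 169.0, 169.5, 178.5 and 179.0 Mb (PC1 -1.84, -1.90, -1.84 and -1.83). They held few genes, among them Tshz2 and Cdh4, a cadherin of the nervous system, and those at 169.0 and 178.5 Mb held none. The GC content of all 5 bins, 45.0% to 47.1%, was above the mean of A bins.

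The correlation coefficient fell steeply over short distances and more slowly beyond 5 Mb. It averaged 0.0806 for adjacent bins (SD 0.0782 over 4675 pairs), with chromosome means from 0.0579 on chr 3 to 0.134 on chr 11. The mean was first below 0.0403, the midpoint between this value and 0, at 3 Mb (0.0379) and was 0.0260 at 5 Mb. From 5 to 30 Mb it stayed between 0.0172 and 0.0260, with 0.0240 at 20 Mb and 0.0175 at 25 Mb. It was 0.0124 at 50 Mb and first fell below the mean of all trans pairs (0.00526) at 68 Mb. At 75 Mb it was above that mean again (0.0107, 18 chromosomes), and at 100 Mb it was -0.00213, where 15 chromosomes had pairs. Only distances up to 58 Mb were present on all autosomes.

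The fall differed between compartments. A-A pairs averaged 0.118 (SD 0.109) up to 2 Mb, 0.0902 from over 2 to 5 Mb, 0.0696 from over 5 to 10 Mb and 0.0482 from over 40 to 80 Mb. B-B pairs started lower and changed less, from 0.0623 (SD 0.0345) up to 2 Mb to 0.0518 from over 5 to 10 Mb and 0.0402 from over 40 to 80 Mb. A-B pairs were above 0 only up to 2 Mb (0.00954, SD 0.0387) and averaged -0.0222 from over 40 to 80 Mb. Since 84.7% of adjacent bins lay in the same compartment, the mean over all pairs also falls with distance as the classes mix. Compartments and runs were set by PC1 from these same cis values, so the differences by class and by run follow in part from the rule. At short range, A-A values were higher within uninterrupted runs of A than between runs. Up to 2 Mb apart, A-A pairs averaged 0.124 (SD 0.111, 4342 pairs) inside 1 run and 0.0448 (SD 0.0384, 343 pairs) between different runs. The same values for B-B pairs were 0.0634 (SD 0.0346) and 0.0490 (SD 0.0309), so the gap was narrower in B, and it was nearly closed from over 5 to 10 Mb (0.0524 and 0.0516). Longer A runs also had higher PC1, and the part of PC1 in this gap was not tested.

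**Figure D1:**
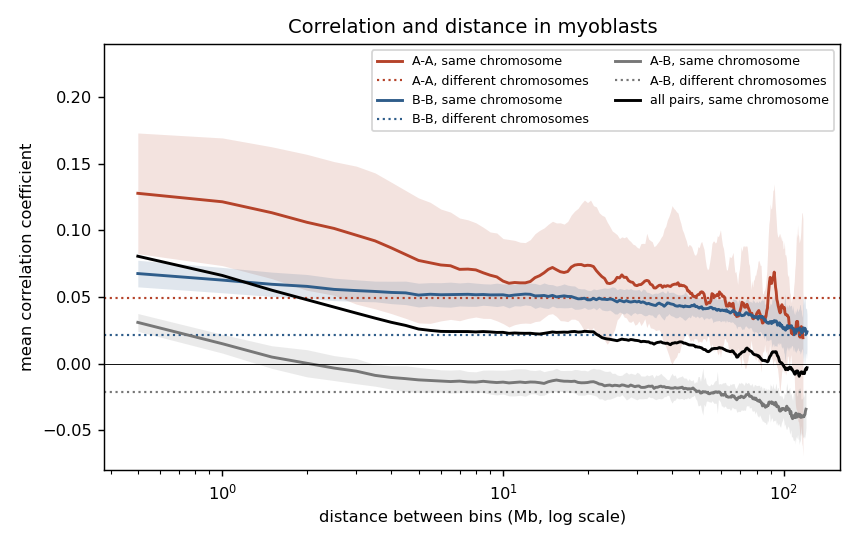
Mean correlation coefficient (y) of myoblast bin pairs against the distance between bins in Mb on a log axis (x), as lines for all, A-A, B-B and A-B pairs of the same chromosome; shading is ±1 SD over chromosomes and dotted lines are the trans means of each class. The A-A line starts at 0.128 at 0.5 Mb and falls more than the B-B line, which starts at 0.0676, and only distances present on 10 or more chromosomes are drawn.

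The class means in cis were 0.0587 for A-A pairs (SD 0.0740 over 90694 bin pairs), 0.0428 for B-B pairs (SD 0.0298 over 237698) and -0.0206 for A-B pairs (SD 0.0371 over 294427). PC1 was computed from these same values, so their contrast is a description of the rule. The medians had the other order for the first 2 classes, 0.0369 for A-A and 0.0407 for B-B. On chr 11, A-A pairs reached 0.186, the highest of the 19 chromosomes, and on chr 3 they had the lowest mean, 0.0326. PC1 took up 69.2% of the variance of the cis values on chr 11 and 26.3% on chr 3. On chr 19, A-B pairs in cis averaged 0.00559, the only chromosome mean above 0 in the range that ended at -0.0351 on chr 11.

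The trans values were not used for PC1, although the profile of each bin enters both its cis and its trans values. Their means had the same order, and in trans the medians did too (0.0301 for A-A, 0.0203 for B-B and -0.0176 for A-B). A-A pairs averaged 0.0490 (SD 0.0650 over 1546451 bin pairs), B-B pairs 0.0212 (SD 0.0213 over 4021123) and A-B pairs -0.0212 (SD 0.0323 over 4988963). The spread over bin pairs was large, and 17.5% of A-A pairs and 14.7% of B-B pairs were below 0, against 73.5% of A-B pairs. In all 171 chromosome pairs the A-A mean was above the B-B mean, which was above the A-B mean. The A-A mean of a chromosome with the others ranged widely, from 0.0347 on chr 3 to 0.0843 on chr 11 (SD 0.0115 over chromosomes). The B-B mean hardly varied, from 0.0186 on chr 3 to 0.0236 on chr 12 (SD 0.00142). Across the 19 chromosomes, the trans A-A mean went with GC content (r = 0.695) and with TSS per bin (r = 0.664) and less with length (r = -0.311). These chromosomes share the same libraries and are no independent samples.

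Dividing the bins of each chromosome into 10 classes of PC1 showed that the trans A-A mean came mainly from the top of the range. Bins of the highest class averaged 0.208 with the highest class of other chromosomes (SD 0.0686), whereas bins of the lowest class averaged 0.0524 with each other (SD 0.0267). The highest class averaged -0.0820 with the lowest (SD 0.0296). A component computed from trans values alone gave the same sign as PC1 in 4577 of the 4729 bins (96.8%). Of the 152 bins with opposite signs, 143 were A by PC1, and their median absolute PC1 was 0.0548, against 0.566 over all bins.

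**Figure D2:**
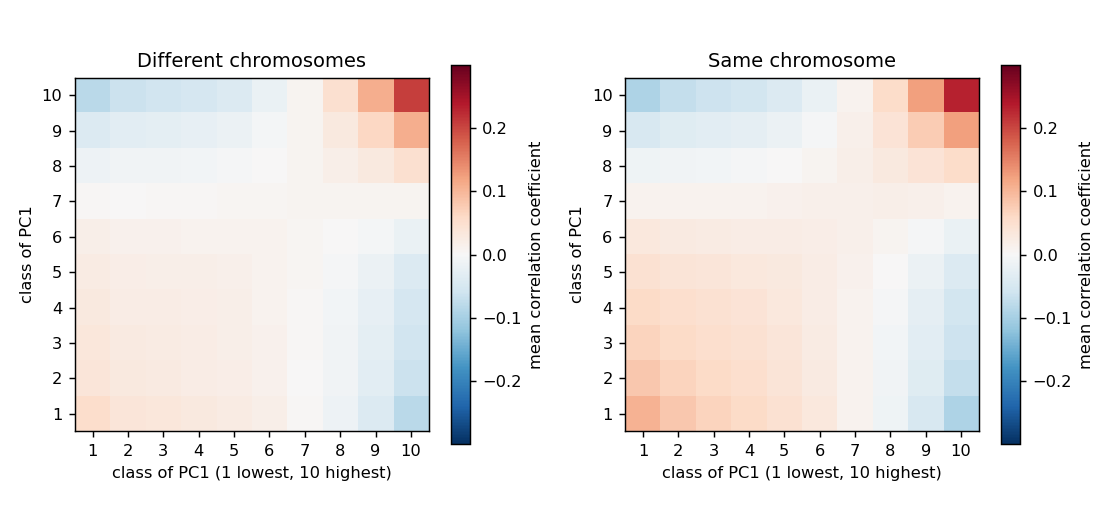
Mean correlation coefficient (colour) between bins by their class of PC1 within their chromosome (x and y, 10 classes of equal size, 1 lowest and 10 highest), for different chromosomes on the left and the same chromosome on the right. The darkest red square in trans is the highest class with itself (0.208), and the corner of highest with lowest class is blue (-0.0820).

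The means of whole chromosome pairs differed little beside the spread of single bin pairs. They averaged 0.00578 (SD 0.00309 over 171 pairs), and 2 were below 0. The highest were chr 11 with chr 19 (0.0216), chr 18 with chr 19 (0.0210) and chr 17 with chr 19 (0.0176). The lowest were chr 2 with chr 19 (-0.00153), chr 2 with chr 18 (-0.000116) and chr 1 with chr 19 (0.000403). Chr 19 thus stood at both ends, in 9 of the 10 highest and 4 of the 10 lowest pairs. Over its 18 pairs, the mean fell with the length of the partner (r = -0.852), and over all 171 pairs the mean went with summed length (r = -0.598), with the same chromosomes entering many pairs. The mean of chr 19 with all other autosomes was 0.00815, the highest, and that of chr 1, the longest, was 0.00416, the lowest.

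The pairs of chr 19 owed their rank to more than 1 class. With chr 11, A-A pairs averaged 0.124, the highest of the 171 chromosome pairs, and B-B pairs 0.0386, also the highest. With chr 18, A-A pairs averaged 0.0677 and A-B pairs -0.00639, the least negative of all. With chr 2, A-A pairs averaged 0.0695, above the overall A-A mean, but B-B pairs averaged 0.00852, the lowest of all, and A-B pairs -0.0304. With medians over bin pairs, and without the bins in the first and last 5 Mb of each chromosome, the highest pair was chr 18 with chr 19 in place of chr 11 with chr 19. When A-A, B-B and A-B means had equal weight, chr 11 with chr 19 was still the highest (0.0467), but the lowest was chr 3 with chr 18 (0.00904), and chr 19 was in 5 of the 10 highest. Chr 3 with chr 18 also had the lowest A-A mean (0.0251).

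**Figure D3:**
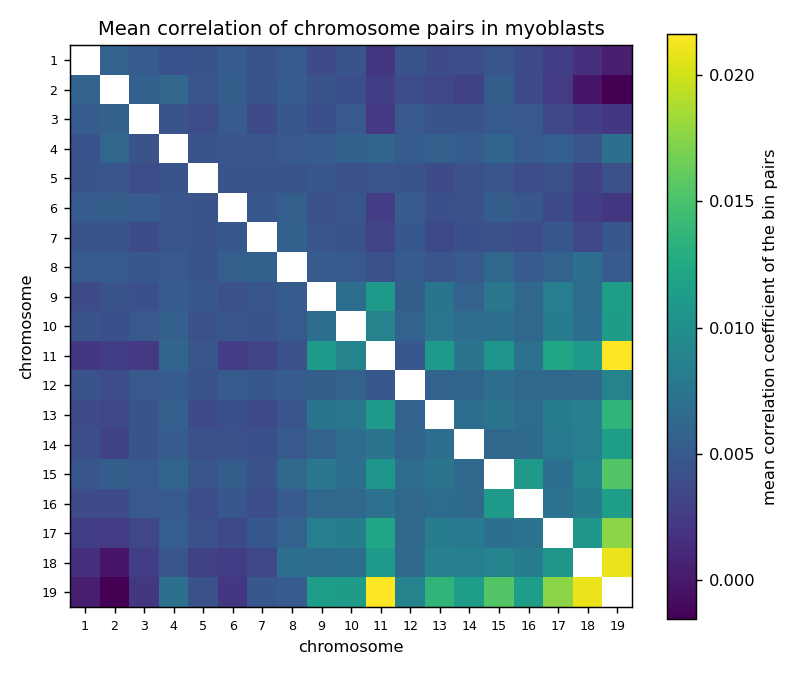
Mean correlation coefficient (colour) of all bin pairs of each pair of autosomes (x and y, chromosome number); the diagonal is blank. The shorter autosomes of the lower right corner have the higher means, up to 0.0216 for chr 11 with chr 19, while chr 19 with chr 2 has the lowest, -0.00153.

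Compartments changed between 714 of 4675 adjacent bins, which gave 768 uninterrupted runs. The 365 A runs were short, with a median of 1.5 Mb (quartiles 1 and 3.5 Mb), and 83 of them were a single bin. The 403 B runs had a median of 2.5 Mb (quartiles 1 and 5 Mb), and 66 were a single bin. Runs of 5 Mb or more, 51 of A and 108 of B, covered 41.4% of the length of A and 61.6% of the length of B. Runs were ended by bins without data, and 16 A runs and 85 B runs bordered such a bin or the end of a chromosome. Runs were sparsest on chr 11 (1.94 per 10 Mb of bins). Chr 7, with the most bins left out (26), had 4.30 per 10 Mb, but 3.77 when runs were continued over bins without data, below chr 15 (3.86) and chr 3 (3.85), while chr 11 stayed at 1.94.

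**Figure D4:**
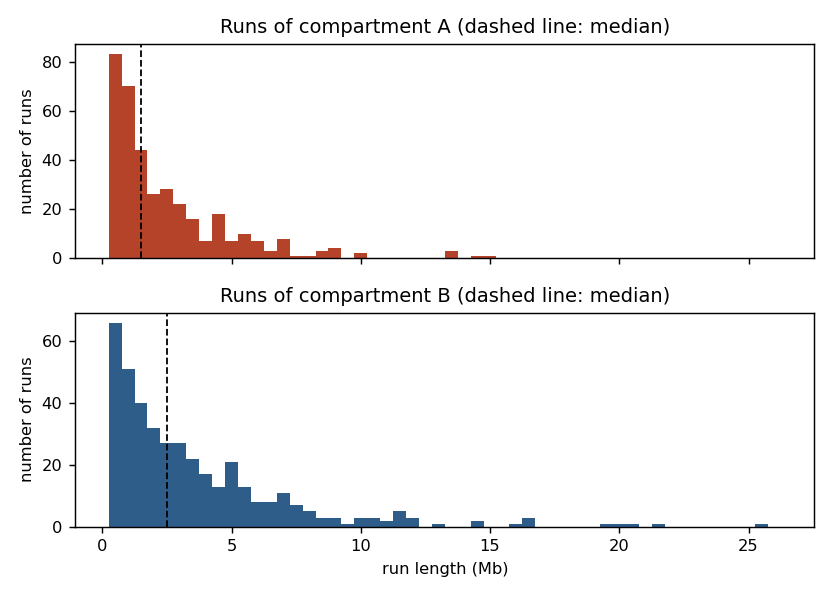
Number of runs (y) by length in Mb (x) for compartment A above and B below, in steps of 0.5 Mb, with the median as a dashed line (1.5 Mb in A and 2.5 Mb in B). Both are highest at a single bin, and B reaches further, to 25.5 Mb against 15 Mb in A.

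The longest A run, on chr 13 from 23.5 to 38.5 Mb (15 Mb), held 141 TSS and had a modest mean PC1 of 0.779. Its trans mean was 0.0547 with A bins and -0.0229 with B bins. The second, also on chr 13 from 90.0 to 104.5 Mb, held 111 TSS at a mean PC1 of 0.585. The next place was shared by 3 runs of 13.5 Mb. The run on chr 2 from 22.5 to 36.0 Mb held 272 TSS and a mean PC1 of 2.14, the run on chr 9 from 54.5 to 68.0 Mb held 166 TSS and 1.67, and the run on chr 11 from 94.0 to 107.5 Mb held 381 TSS and 1.87. These 3 averaged 0.0942, 0.0975 and 0.0921 with A bins in trans, above both runs of chr 13. The 2 longest runs thus had the lowest mean PC1 and the lowest trans mean with A of the 5. PC1 also spread less on chr 13 (SD 0.642) than on chr 2 (1.15), chr 9 (0.852) or chr 11 (1.42).

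The longest B run spanned 25.5 Mb of chr 1, from 94.0 to 119.5 Mb, with 50 TSS in 51 bins, 27 of them without any, and a mean PC1 of -0.676. The second lay between the 2 long A runs of chr 13, from 68.5 to 90.0 Mb (21.5 Mb, 71 TSS, mean PC1 -0.528). The third lay on chr 11 from 23.5 to 44.0 Mb (20.5 Mb, 96 TSS, mean PC1 -1.08). Only a single bin parted it from another B run of chr 11, from 6.5 to 23.0 Mb (16.5 Mb). Lengths and ranks of runs thus rest partly on single bins, and a 3-bin median filter gave a longest B run of 45.0 Mb. With B bins in trans, the 3 longest B runs averaged 0.0176, 0.0193 and 0.0213, beside an overall B-B mean of 0.0212.

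A run's length went with how its bins behaved in trans. PC1 did not use the trans values, but the profile of each bin enters both, so this is no separate support. In single-bin A runs, the median absolute PC1 was 0.101, the trans mean was 0.00906 with A and 0.00140 with B bins, and 63.9% of bins were higher with A than with B. In A runs of 2.5 to 4.5 Mb the trans mean with A was 0.0496 and the share 94.7%, and in the 7 A runs of 10 Mb or more they were 0.0765 and 98.9%. The median absolute PC1 rose as well, to 0.780 and 1.29 in these classes, and its part in the trans values was not tested. Single-bin B runs were more clearly B, as 4.55% of them were higher with A than with B in trans. Gene density of A rose from 4.42 ± 5.22 TSS per bin in single-bin runs to 7.34 ± 7.17 in runs of 2.5 to 4.5 Mb and hardly further. In B it fell from 4.98 ± 5.94 in single-bin runs to 1.86 ± 3.50 in runs of 10 Mb or more. Border values cover only longer runs, with 228 outermost A bins and 374 outermost B bins. There the median PC1 was 0.375 in the outermost A bins, 0.846 in the second and 1.33 further in, so A rose gradually. In B it was -0.335, -0.570 and -0.588, close to its inner level by the second bin.

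The strongest trans pairs joined a small set of gene-dense A bins. The highest value, 0.470, lay between chr 2 at 32.5 to 33.0 Mb and chr 10 at 80.5 to 81.0 Mb, both shown with their HindIII sites above. The chr 2 bin is the Cdk9 and Eng bin with the second-highest PC1 value. The chr 10 bin held 26 TSS, among them Abhd17a, Adat3, Ap3d1, Atp8b3, Btbd2, Csnk1g2, Amh, the anti-Müllerian hormone gene, and Dot1l, the histone H3 methyltransferase. The 3 by 3 block of bin pairs around it averaged 0.381. The 10 strongest pairs ranged only from 0.458 to 0.470 and all joined A with A, so their order rests on small differences. The same chr 10 bin took part in the second pair, with chr 15 at 76.0 to 76.5 Mb (0.467; 25 TSS with Bop1, a ribosome biogenesis factor, Hsf1, the heat shock factor, and Plec, which encodes plectin). It also took part in the third, with chr 2 at 32.0 to 32.5 Mb (0.464).

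The fourth and the sixth pair shared the bin at 134.5 to 135.0 Mb of chr 4, whose 10 genes include Selenon, mutated in a congenital myopathy, and Rhd and Syf2. Its partners were chr 17 at 25.5 to 26.0 Mb (0.463; 29 TSS with Stub1, Sox8 and Metrn) and chr 8 at 122.5 to 123.0 Mb (0.460). The chr 8 bin holds Cdh15, the M-cadherin gene of muscle precursors, and Cdt1, which licenses replication origins, beside Acsf3, Aprt, Cbfa2t3, Galns, Pabpn1l and Piezo1. The fifth pair joined the Ptges bin of chr 2 with chr 15 at 79.0 to 79.5 Mb (0.461; Sox10, Polr2f and H1f0 among its 18 TSS). In the seventh pair and in the last of the 10, chr 2 at 31.0 Mb (0.459) and at 31.5 Mb (0.458) met chr 17 at 26.0 to 26.5 Mb, whose 12 TSS include Axin1, a scaffold of the β-catenin destruction complex, and Luc7l. The 3 by 3 blocks around both averaged 0.442, the highest of the 10. The eighth joined chr 2 at 32.5 Mb with chr 10 at 80 to 80.5 Mb (0.459; 27 TSS with Gpx4, Cirbp and Polr2e). The ninth was the only one without chr 2, 4 or 10, between chr 5 at 122.5 to 123.0 Mb (Atp2a2, the slow-muscle and cardiac calcium pump, Kdm2b, Anapc5, Camkk2, Ift81, P2rx4, P2rx7 and Rnf34) and chr 8 at 122.0 to 122.5 Mb (0.459; 9 TSS with Cyba, Mvd, Snai3, Zfpm1, Ctu2 and Il17c).

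Moving 1 bin of these 10 pairs along its chromosome, the mean fell from 0.462 in place to 0.409 at 0.5 Mb, 0.331 at 1 Mb, 0.250 at 2 Mb and 0.0874 at 5 Mb. It was -0.0589 at 10 Mb and 0.0494 at 20 Mb, so the course was not steady. The pairs were picked as the highest, so that the mean fell was fixed by the choice and is no finding. The SD over the shifted values was 0.0562 at 0.5 Mb and 0.166 at 5 Mb, so some pairs kept high values for longer.

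Of the 1000 strongest trans pairs, 54 joined chr 2 and chr 15, 53 chr 2 and chr 11, 47 chr 2 and chr 17, 42 chr 11 and chr 15, and 37 chr 4 and chr 15. In the same order, these chromosome pairs held 71104, 83424, 64768, 47874 and 59994 of the 10556537 trans bin pairs. The highest of each were the fifth and the seventh pair above for the first and the third of these. For chr 2 with chr 11 it was the Cdk9 bin with 120.5 to 121.0 Mb (0.434), a bin of 28 TSS with Fasn, the fatty acid synthase gene, P4hb, Csnk1d and Sirt7. The same chr 11 bin gave the highest pair with chr 15, at 76.0 to 76.5 Mb (0.431). For chr 4 with chr 15 it was the bin at 135.5 to 136.0 Mb with the Sox10 bin (0.443), and this chr 4 bin holds 12 TSS, with Myom3, a sarcomere M-band gene, Srsf10 and Lypla2 among them.

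The strongest 0.1% of trans pairs, 10556 pairs at 0.305 or more, used 287 bins (6.07% of the 4729), of which 285 lay in A. These bins held 12.3 ± 7.77 TSS, against 5.71 ± 5.71 in the other 1525 A bins. Their GC content was 47.5% ± 2.54, against 43.6% ± 3.17, and they had fewer HindIII sites, 134 ± 20.1 against 155 ± 20.6. Gene density alone did not mark them. Of 136 bins with 20 TSS or more, 49 were among the 287, and 39 of the 287 had fewer than 5 TSS. The 287 bins formed 78 stretches of adjacent bins, 25 of them a single bin. The stretch on chr 2 from 25 to 33.5 Mb supplied 9.98% of all pair ends. It was followed by chr 15 at 76.0 to 82.0 Mb (7.67%), chr 4 at 132.5 to 138.5 Mb (7.27%), chr 17 at 24.5 to 29.5 Mb (6.96%), chr 11 at 115.5 to 122.0 Mb (6.09%) and chr 9 at 56.5 to 67.0 Mb (6.03%). By chromosome, chr 11 supplied most pair ends (14.4%, from 44 bins) and chr 13 fewest (0.630%, from 3 bins), although chr 13 held the longest A runs. These were 18.6% of the bins of chr 11 and 1.29% of those of chr 13, beside 6.07% of all bins. The bin with most partners, at 135.5 to 136.0 Mb of chr 4, was paired with 224 of the 268 possible bins of the set on other chromosomes.

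Within B, trans values were lower. The highest, 0.268, joined the first bins with data of chr 6 and chr 8 (both at 3.0 to 3.5 Mb), and the fifth, 0.220, the first bins of chr 6 and chr 15. The chr 8 bin holds Insr, the insulin receptor gene, and the chr 6 bin Samd9l, Vps50 and Hepacam2. The other eight of the 10 highest B-B pairs all joined the distal end of chr 2, from 169.0 to 180.0 Mb, with chr 4 at 152.5 to 154.5 Mb (0.207 to 0.234), with genes such as Cdh4, Taf4, Edn3, Zfp831 and Ajap1, Dffb and Trp73. Their bins had a PC1 of -1.34 or lower and a GC content of 45.7% to 52.1%, above the mean of B. The lowest trans value of the matrix, -0.224, joined the same end of chr 2 (178.5 to 179.0 Mb, without a protein-coding TSS) with chr 19 at 4.5 to 5.0 Mb, a bin of 19 TSS with Actn3, the α-actinin of fast muscle fibres, Ctsf and Pcx. The B-B pairs, the lowest pair and their genes were picked with their values in view.

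The first bins with data of the chromosomes were more alike in trans than bins further in. Mouse autosomes are acrocentric, so these are the bins with data nearest the centromere. Their 171 trans pairs averaged 0.0638 (SD 0.0437) and 95.3% were above 0, although 13 of the 19 lay in B. The second bins averaged 0.0419 (SD 0.0433), the fifth 0.0281 (SD 0.0478), the bins at rank 11 0.0353 (SD 0.0243) and those at rank 21 0.0243 (SD 0.0271), so the decline was not steady. At the distal ends, the last bins averaged 0.0327 (SD 0.0452), the second 0.0355 (SD 0.0534) and the bins at rank 21 0.0233 (SD 0.0291). The chr 8 bin was highest with the other first bins (0.0916) and that of chr 11, which lay in A at a PC1 of 1.50, lowest (0.0310). Their repeat-masked share ran from 26.6% on chr 11 to 61.6% on chr 3, beside a median of 31.5% over the bins used, and its part in these values was not tested.

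Genes of muscle precursors lay mostly in A. Of 26 myogenic regulator and myoblast genes, 21 were in A (80.8%, exact binomial 95% interval 60.6% to 93.4%), beside 60.1% of all protein-coding genes. Myod1 (chr 7, PC1 1.22), the master regulator of the lineage, and Pax7 (chr 4, 1.65), the satellite cell factor, lay in A. Myog, which drives terminal differentiation, had one of the highest values of the list (chr 1, 2.28), with Id3 (chr 4, 2.69), an inhibitor of MyoD family factors, and Cdh15 (chr 8, 2.24). The 5 genes in B were Mef2c (chr 13, -0.531), a partner of MyoD, Pax3 (chr 1, -0.180), a factor of embryonic muscle precursors, Id2 (chr 12, -0.176), and Myf5 and Myf6, MyoD family genes that share a chr 10 bin at -0.396. Myf5 and Myod1, the determination factors of the family, were thus in different compartments.

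Sarcomere and contraction genes were split. Of 32 genes, 19 lay in A (59.4%, interval 40.6% to 76.3%), close to the share of all protein-coding genes. Counting each bin once, 18 of 27 bins (66.7%) were in A, above the 46.1% of all bins with a TSS. The highest PC1 on the list belonged to Mymk (chr 2, 2.52), Tcap (chr 11, 2.46) and Mylpf, the fast regulatory light chain (chr 7, 2.16). Mymk encodes the fusion protein myomaker and is no sarcomere gene. Acta1, the skeletal α-actin gene, was also deep in A (chr 8, 2.09). On the trans scale, the mean with A bins minus that with B bins, the order was another, with Actn3 (0.205) and Acta1 (0.186) above Mylpf (0.177), Tcap (0.176) and Mymk (0.161). The myosin heavy chain genes Myh1, Myh2, Myh3, Myh4 and Myh8 share 1 bin of chr 11 at a PC1 of -1.72. The other eight in B were Mybpc1 (-0.757), Actn2 (-0.642), the cardiac actin gene Actc1 (-0.507), the calsequestrin gene Casq1 (-0.453), Myom2 (-0.404), Neb (-0.207), Myl1 (-0.165) and Ttn, the titin gene (-0.130). The trans mean of the Ttn bin with A bins minus that with B bins was -0.00884, the smallest difference of these bins.

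Of 38 cell cycle and DNA replication genes, 29 lay in A (76.3%, interval 59.8% to 88.6%), beside 60.1% of all protein-coding genes, which this interval includes. Each gene lay in a bin of its own, and 46.1% of all bins with a TSS were in A. Tk1 (chr 11, 2.47), Cdt1 (chr 8, 2.24) and Cdc6 (chr 11, 2.21) were highest, and the cell cycle inhibitor gene Cdkn1a (chr 17) was at 1.89. The 9 in B were the mitotic kinase genes Aurka (-1.55) and Plk1 (-0.838), the cyclin genes Ccnd2 (-0.644) and Ccne1 (-0.503), the replication helicase genes Mcm5 (-0.568), Mcm3 (-0.242) and Mcm7 (-0.0887), the proliferation marker Mki67 (-0.376) and Rrm2 (-0.279), a ribonucleotide reductase subunit. Compartment B at the 500 kb scale thus included bins of genes that dividing cells use. Mcm7 shares its bin with 20 other protein-coding TSS, and its PC1 is close to 0.

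Lists of other lineages ranged widely, and the fibroblast and matrix list lay near the myogenic list. Of 26 neuronal genes, 4 lay in A (15.4%, interval 4.36% to 34.9%), and of 20 liver genes 6 (30.0%, interval 11.9% to 54.3%). Olfactory and vomeronasal receptor genes were lowest, with 126 of 1385 in A (9.10%), but they fill 166 bins in clusters and 20.5% of these bins were in A. Of 22 fibroblast and matrix genes, 18 were in A (81.8%, interval 59.7% to 94.8%), beside 80.8% of the myogenic regulator and myoblast genes. Ribosomal protein genes, which every cell uses, had 62 of 77 in A (80.5%, interval 69.9% to 88.7%). Blood cell genes (10 of 19, 52.6%) and Zfp zinc finger genes (175 of 348, 50.3%) lay near or below the share of all genes. Counting each bin once, the shares were 52.6% and 54.3%, above the 46.1% of all bins with a TSS. Hox genes (30 of 39, 76.9%), replication-dependent histone genes (59 of 67, 88.1%) and keratin genes (84 of 110, 76.4%) lie in 5, 6 and 12 bins, so their shares rest on few regions.

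**Figure D5:**
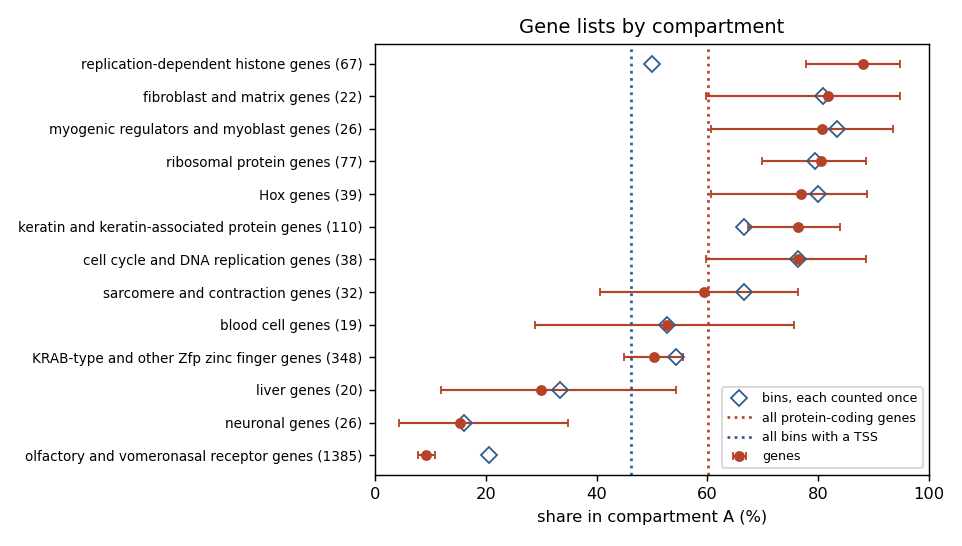
Share of the genes of each list in compartment A in percent (x, points with exact binomial 95% intervals) and share of their bins, each counted once (open diamonds), with the number of genes in brackets; dotted lines are all protein-coding genes (60.1%) and all bins with a TSS (46.1%). Neuronal and receptor genes lie at the left, and the histone genes fall from 88.1% of genes to 50.0% of bins.

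Bins of the strongest 0.1% of trans pairs held 3542 of the 20370 protein-coding genes (17.4%). For myogenic genes the share was 15.4% (4 of 26), and for sarcomere and contraction genes 21.9% (7 of 32). It was 21.1% for cell cycle genes (8 of 38), 32.5% for ribosomal protein genes (25 of 77) and 7.69% for neuronal genes (2 of 26). The muscle and cell cycle shares were thus near that of all genes. The bin of Cdh15 and Cdt1 took part in 202 of the pairs, that of Id3 in 184, that of Acta1 in 114, that of Myog in 67 and that of Cdkn1a in 64. Myod1, Pax7 and Ttn were in none.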

How the data were processed

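Hi-C was performed with HindIII on 2 biological replicates of C2C12 myoblasts. The study's methods name bowtie within HiCUP v0.5.3 for mapping and filtering of read pairs (di-tags), and HOMER for the interaction matrices. Correlation matrices of 500 kb bins are described there for each replicate, and matrices of combined replicates at a finer resolution than 500 kb. Whether this 500 kb matrix was combined is not stated directly. It was taken as combined because the labels of both replicates name it. One matrix of scores for each condition was deposited, and the scores are correlation coefficients of the contact profiles of 500 kb bins. For compartments from combined replicates, the methods give a HOMER window wider than the bins. Whether neighbouring windows overlap in this matrix is not given in the sources used here. Replicate 2 of the myoblasts had more PCR reactions than replicate 1, which cannot be told apart in a single matrix. The methods name the build GRCh38 for mouse in one place and mm10 in another, and the bins fit mm10, so GRCm38 with GENCODE vM21 was used. Columns of unmapped samples numbered 0. The contacts behind a value cannot be read from the matrix, and correlations have no counting interval. The study's own totals of di-tags are not printed here.

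PC1 was computed per chromosome from the centred cis values, with its sign set by TSS, in Python 3.11.15 with NumPy 2.4.6, SciPy 1.17.1, pandas 2.3.3 and Matplotlib 3.10.9. The steps were tested on simulated data. With 1 matrix no test was run. The members, gene lists and rules were chosen with earlier results of these data known. Named items are the 10 strongest trans pairs, the highest pair of the 5 chromosome pairs with most of the top 1000, the 5 highest and 5 lowest PC1 bins, the 3 longest runs of each compartment, the 3 highest and 3 lowest chromosome pairs, and from the muscle and cell cycle lists the genes in B, the 3 with the highest PC1 and Myod1, Myf5, Myog, Pax7, Acta1, Ttn and Cdkn1a. The genes given of a bin with many are a selection of at most 8, made after the gene names were seen. The alternatives were other components, bins, weights and summaries.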

Additional observations from a re-analysis of the deposited data

How the results depend on the processing

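No paired analysis was possible because 1 matrix stands for both replicates, and for the same reason no replicate could be left out. Over 43 results, 167 values were computed under alternatives. Of these, 144 stayed within the spread over chromosomes or chromosome pairs, within the binomial interval of a share, within 1.5 times a count or a length, within 0.2 of the r of chromosome pairs with length or within 5 percentage points of the A share of the strongest bins. A diagonal above 0 selected the same bins, so its values equal the main ones by construction. They are still counted among the 167 and the 144, which therefore overstate how much was tried. The share of A bins was 35.4% by a component from trans values and 33.7% without centring. Without centring, the trans means were 0.0623 for A-A and 0.0193 for B-B. Without the bins whose absolute PC1 was among the lowest 20% on their chromosome, they were 0.0756 for A-A, 0.0258 for B-B and -0.0330 for A-B, the cis means were 0.0525 for B-B and -0.0354 for A-B, and the median B run was 1.5 Mb. With medians, trans A-A was 0.0301, trans A-B -0.0176 and the value at 0.5 Mb 0.0608. The order A-A, B-B, A-B held in trans in each of these, but in cis the median of A-A (0.0369) was below that of B-B (0.0407). With equal weight of the classes, the highest chromosome pair was 0.0467, the lowest 0.00904 in place of a value below 0, and chr 19 was in 5 of the 10 highest pairs. With medians or without the ends of chromosomes, chr 18 with chr 19 was the highest pair. A 3-bin median filter gave a median A run of 2.5 Mb and a longest B run of 45.0 Mb. Counting each bin once gave 20.5% in A for olfactory and vomeronasal receptor genes, 50.0% for histone genes, 66.7% for keratin genes and 46.1% for all protein-coding genes, and the trans component gave 58.1% for all protein-coding genes. The cause of these shifts was not tested beyond the construction of each alternative. Ranking trans pairs by their 3 by 3 block mean kept 74.5% of the strongest 0.1% and 2 of the 10 strongest pairs.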

Other observations

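A single bin of chr 1, at 183.0 to 183.5 Mb with Disp1, Mia3, Brox, Aida, Taf1a and Hhipl2, stood apart from its neighbours in trans. It was chosen after its values were seen, because it was in all 5 of the highest A-B trans pairs, which joined it to chr 15 (0.338 with the bin at 3.5 to 4.0 Mb, which holds Ghr, the growth hormone receptor gene). With the 44 used bins of chr 15 below 25 Mb it averaged 0.180 (SD 0.0686), while the 3 bins on either side averaged -0.0315 to -0.0217 with the same bins. With the rest of chr 15 it averaged 0.0560 and its neighbours 0.0216 to 0.0299. It also averaged 0.0808 with chr 19, where its neighbours lay between -0.00969 and 0.00111. With the third chromosome in rank, chr 16, its mean was 0.0346. Its PC1 of 0.914 was below that of the 6 neighbours (1.38 to 1.99), and it was the A bin with the lowest PC1 among the bins of the strongest 0.1% of trans pairs. The 2 B bins of that set, both on chr 15, were there through this bin. In the reference 17.5% of the bin is unknown sequence (N), against 0 to 2.02% in its neighbours. Neither the part of the unknown sequence nor any other origin of these values was tested.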
